A study of Bos taurus with 6 samples.

Results

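FOS, FOSB, FOSL1, FOSL2, JUN, JUNB, JUND, EGR1, ATF3 and MYC encode the immediate early transcription factors described here. They were taken by symbol, and all 10 are among the 23475 genes listed for the 6 libraries. Testing required an average of 0.5 FPKM or more across libraries, and 9 of the 10 genes passed, among 12422 genes in all, FOSB being the exception. FPKM, fragments per kilobase of transcript scaled to all mapped fragments of the library, allows for transcript length, so that levels can be set beside each other between genes.

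The libraries came from Bos taurus adipocytes isolated from subcutaneous fat, which the study treats as preadipocytes, grown in high glucose medium with fetal bovine serum. Of these cells, 3 samples received the bta-miR-484 agomir and 3 received the agomir NC, and RNA was taken 48 h after transfection. An agomir is a modified duplex RNA given to cells to increase a miRNA, and the agomir NC is its negative control, so both groups had been transfected and cells without transfection were not analysed here. The fat was taken from 3 premature calves, and nothing in the sources used here states whether each sample of a group was a separate culture or came from a calf of its own, so p-values measure only the spread between these samples, which may be technical. The mature miRNA was not measured in these values, so the labels could not be checked against it. FPKM values summed to between 365977 and 379361 per library, and the number of reads behind them is unknown.

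Immediate early genes are transcribed within minutes of a stimulus such as serum, growth factors or mechanical handling, from signalling proteins already present in the cell, and most of their transcripts are short-lived. FOS and JUN family proteins pair through leucine zippers to form AP-1, which binds DNA as a dimer, whereas EGR1 binds through zinc fingers and MYC binds as a dimer with MAX. In preadipocytes these factors are known for their part in entry into the cell cycle and in the first steps after induction of differentiation.

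Markers of the labelled cell type were examined first. Of 14 preadipocyte and fibroblast markers, which summed to between 25650.4 and 26892 FPKM, the collagen gene COL3A1 was the most abundant, with a mean of 7623 FPKM, whereas DLK1, a classical preadipocyte marker, was listed at 0. Among 12 markers of mature adipocytes the most abundant was LPL, the lipoprotein lipase gene, with a mean of 3.73 FPKM, while the adiponectin gene ADIPOQ reached at most 0.197 FPKM and PCK1 was listed at 0. The summed FPKM of these 12 markers was 14.5, 16.0 and 15.3 in the agomir libraries and 16.2, 14.4 and 15.2 in the agomir NC libraries, so markers of mature fat cells were low in both groups. Sums of 8 endothelial markers, with VWF the most abundant and CLDN5 at 0, lay between 3.93 and 4.83 FPKM, and those of 9 immune cell markers, with CD14 the most abundant and TYROBP at 0, were 8.85, 9.31 and 7.65 FPKM under the agomir against 9.33, 9.096 and 9.15 FPKM. The 6 epithelial markers were led by EPCAM, with a mean of 0.157 FPKM and KRT18 at 0, and the 7 muscle and smooth muscle markers by ACTA2, with a mean of 207 FPKM and MYOD1 and MYOG at 0. Of the 26 marker genes tested, 4, or 15.4%, had an unadjusted limma p below 0.05, a line that 10.9% of all genes tested were under, and none was under an adjusted p of 0.05, namely FABP4 (log2 fold change -0.49), FCER1G (-0.42), DCN (-0.12, with a change of sign under quantile normalization) and PPARG (0.23). FABP4 missed the unadjusted line without agomir 3 or agomir NC 1, DCN without agomir 1 or agomir 3, and PPARG and FCER1G without agomir 1, agomir 3 or agomir NC 3. These 4 genes and ADIPOQ were named after their values were seen, and the part of other cell types in the differences given here was not tested.

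All 10 genes were listed above 0 in every library at 48 h, over a wide range of levels. JUNB was the most abundant, with a mean of 179.9 FPKM over the 6 libraries, which placed it at the 97.8th percentile of the genes tested. EGR1 followed at 118 FPKM, then FOSL2 at 40.7 FPKM. The lowest FOSL2 library, at 38.8 FPKM, lay only just above the highest JUND library, at 38.5 FPKM. JUND and FOSL1 came next and overlapped in their ranges, from 32.5 to 38.5 FPKM and from 32.1 to 36.1 FPKM, although JUND was above FOSL1 within each of the 6 libraries. JUN, from 14.97 to 20.04 FPKM, was separate from its neighbours on both sides. The range of MYC overlapped with that of ATF3, and that of ATF3 with FOS. Within libraries MYC was above ATF3 in 6 of 6, whereas ATF3 was above FOS in 5 of 6, agomir NC 2 being the exception. MYC, ATF3 and FOS stood at the 59.0th, 51.9th and 46.4th percentiles of the genes tested, while FOSB was below 0.19 FPKM in every library.

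**Figure D1:**
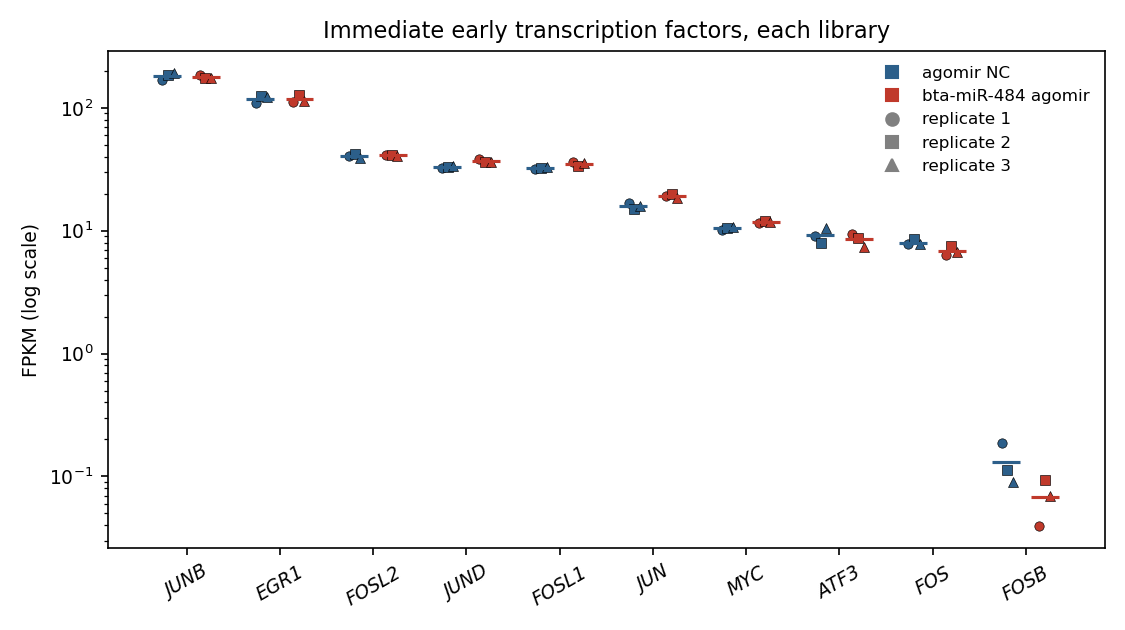
FPKM of each of the 10 genes on a log axis, with agomir NC libraries in blue and bta-miR-484 agomir libraries in red, replicate numbers as circles, squares and triangles, and the group mean as a line. Levels run from 191 FPKM for JUNB to 0.0398 FPKM for FOSB, and the red and blue points are apart for JUND, FOSL1, JUN, MYC and FOS.

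Between the agomir and the agomir NC, 5 of the 9 genes tested had an unadjusted limma p below 0.05, that is 55.6%, 4 higher with the agomir (JUN, JUND, MYC and FOSL1) and 1 lower (FOS). Of all genes tested, 10.9% were under the same line, 6.63% higher and 4.31% lower. None of the 9 genes was under a Benjamini-Hochberg adjusted p of 0.05 in limma, which 0.00805% of all genes tested, that is 1 gene, were. The same 5 genes had groups that did not overlap, 4 higher and 1 lower, against 17.2% of all genes tested, of which 10.9% were higher and 6.36% lower. The median log2 fold change of the 9 genes was 0.025, beside 0.013 for all genes tested. It was 0.0497 without agomir NC 2, and without agomir NC 3 it was 0.012, below the 0.016 of all genes tested. With median-ratio scaling the medians were 0.0084 and -0.00198, and without a filter they were 0.0062 (all 10 genes) and 0.0075. Median-ratio scaling gave 3 higher and 1 lower among the 9 genes, FOSL1 being lost, and moved the split over all genes from 824 higher and 535 lower to 657 and 706. Without 1 library the count of 5 became 2 (agomir 3), 3 (agomir 1, agomir NC 1 or agomir NC 2) or 4 (agomir 2 or agomir NC 3). In these bulk samples, fewer cells with a transcript and less of it per cell cannot be told apart.

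**Figure D2:**
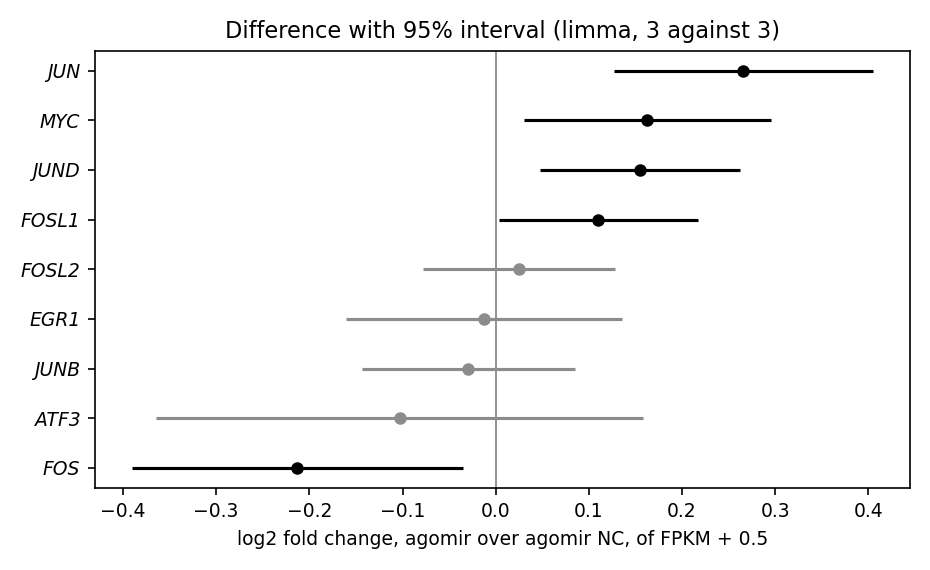
Log2 fold change of agomir over agomir NC on the log2(FPKM + 0.5) scale for the 9 genes tested, with 95% intervals from limma (3 libraries per group) and genes under an unadjusted p of 0.05 in black. JUN is the highest at 0.27 and FOS the lowest at -0.21, and the intervals of FOSL2, EGR1, JUNB and ATF3 cross 0, with EGR1 at -0.012 here and at 0.0073 under quantile normalization.

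The FOS family supplies the AP-1 partners that cannot pair with themselves. FOS, its best known member and a strong activator when paired with JUN, was at 6.40, 7.46 and 6.71 FPKM in agomir libraries 1, 2 and 3 against 7.76, 8.502 and 7.78 FPKM in agomir NC libraries 1, 2 and 3. Its values under the agomir were all below those under the agomir NC, and the closest pair was agomir 2 and agomir NC 1. Group means were 6.85 ± 0.544 and 8.01 ± 0.422 FPKM (SD, n = 3 each), with a log2 fold change of -0.21 (95% interval -0.39 to -0.035). By limma with Benjamini-Hochberg adjustment this did not pass, at an adjusted p = 0.393. It was also above the unadjusted line without agomir 1 (-0.17), agomir 3 (-0.20) or agomir NC 2 (-0.17).

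FOSL1, which encodes FRA-1, a partner without the strong activation domain of FOS, was at 36.1, 33.5 and 35.3 FPKM under the agomir versus 32.1, 32.1 and 32.9 FPKM under the agomir NC. The groups were apart by less than 1 FPKM, between agomir 2 and agomir NC 3. The means of 34.97 ± 1.32 and 32.3 ± 0.443 FPKM (SD, n = 3 each) gave a log2 fold change of 0.11 (95% interval 0.0033 to 0.22), with an adjusted p = 0.442 in limma after Benjamini-Hochberg adjustment. The unadjusted line was missed without any single library except agomir 2, with log2 fold changes of 0.088 without agomir 1, 0.10 without agomir 3, 0.10 without agomir NC 1, 0.11 without agomir NC 2 and 0.12 without agomir NC 3. It was missed as well with median-ratio scaling (0.094), without a variance trend and with the replicate block (0.11 each). CCDC85B lies within 1 kb of FOSL1 in the RefSeq table of ARS-UCD2.0, a later build than that of the files, and was at 48.4 to 52.1 FPKM in the 6 libraries.

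FOSL2 encodes FRA-2, another such partner, and was the most abundant gene of the family. It was at 41.5, 41.1 and 40.4 FPKM after agomir transfection, compared with 40.5, 41.8 and 38.8 FPKM after agomir NC. The groups overlapped, with the highest and the lowest value both in the agomir NC. Its log2 fold change of 0.025 had a 95% interval from -0.078 to 0.13, that is a fold between 0.947 and 1.09, and without agomir NC 3 it was -0.0022. FOSB, whose short splice form accumulates under repeated stimulation in neurons, was at 0.0398, 0.0940 and 0.0697 FPKM in agomir libraries 1, 2 and 3 against 0.186, 0.114 and 0.0900 FPKM in agomir NC libraries 1, 2 and 3. Agomir 2 lay above agomir NC 3, so the groups overlapped, and the two-sided exact test by permutation gave p = 0.2 (n = 3 each). FOSB was fitted only without the filter, where its log2 fold change was -0.15 (95% interval -0.34 to 0.043, adjusted p = 0.653 in limma). At these levels, and with read numbers unknown, no difference in FOSB could be resolved.

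The 4 FOS family genes summed to 84.1, 82.2 and 82.5 FPKM under the agomir versus 80.5, 82.5 and 79.6 FPKM under the agomir NC. These sums overlapped between the groups, while the share of FOS in them did not. FOS made up 7.61%, 9.07% and 8.13% of the sum with the agomir and 9.65%, 10.3% and 9.78% with the agomir NC. FOSL1 and FOSL2 together supplied most of the rest, with mean shares of 42.2 ± 1.205% and 49.5 ± 0.522% with the agomir and 40.02 ± 1.19% and 49.9 ± 0.963% with the agomir NC (SD, n = 3 each). Both shares overlapped between the groups, and FOSB made up at most 0.231%. No test was run on shares.

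JUN family proteins can pair with each other or with FOS family proteins. JUN, the member that gives AP-1 its strongest transcriptional activity and is phosphorylated by JNK kinases, was at 19.1, 20.04 and 18.4 FPKM after agomir transfection, compared with 16.8, 14.97 and 15.9 FPKM after agomir NC. All 3 agomir libraries lay above all 3 agomir NC libraries, with agomir 3 and agomir NC 1 the closest pair. Group means were 19.2 ± 0.836 and 15.9 ± 0.892 FPKM (SD, n = 3 each), which is a 1.21 times higher level with the agomir. Its log2 fold change was 0.27 (standard error 0.062, 95% interval 0.13 to 0.405), with an adjusted p = 0.248 in limma with Benjamini-Hochberg adjustment, the lowest of the 9 genes. In order of limma's p, JUN was at place 85 of 12422. When the libraries were left out one by one, the log2 fold change lay between 0.23 and 0.305, always under the unadjusted line and never under an adjusted p of 0.05.

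JUNB, which restrains JUN in many settings and is a weaker activator, was at 184, 176 and 174 FPKM in agomir libraries 1, 2 and 3 against 169, 186 and 191 FPKM in agomir NC libraries 1, 2 and 3. The agomir NC libraries spanned the whole range of the agomir libraries. Its means of 178 ± 4.90 and 182 ± 11.4 FPKM (SD, n = 3 each) gave a log2 fold change of -0.029 (95% interval -0.14 to 0.085), which became 0.0054 without agomir NC 3. The interval corresponds to a fold between 0.905 and 1.06.

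JUND, the member with the steadiest expression in most cells, was at 38.5, 35.9 and 36.3 FPKM under the agomir versus 32.5, 33.0 and 33.7 FPKM under the agomir NC. The agomir libraries were all higher, and agomir 2 and agomir NC 3 were the closest pair. The means of 36.9 ± 1.39 and 33.1 ± 0.606 FPKM (SD, n = 3 each) differed by a log2 fold change of 0.15 (standard error 0.048, 95% interval 0.048 to 0.26). It did not pass after Benjamini-Hochberg adjustment (adjusted p = 0.332 in limma), and with each library left out it was between 0.12 and 0.17 and under the unadjusted line. IQCN overlaps JUND in the RefSeq table and was listed at 0.131 to 0.230 FPKM.

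As a family, the 3 JUN genes summed to 241.1, 232.1 and 228.9 FPKM after agomir transfection, compared with 218.3, 233.9 and 240.2 FPKM after agomir NC, and the groups overlapped. JUNB supplied the greater part in every library. Its share was 76.1%, 75.9% and 76.1% with the agomir and 77.4%, 79.5% and 79.4% with the agomir NC, lower in every agomir library. JUN made up 7.94%, 8.63% and 8.03% of the sum with the agomir and 7.68%, 6.40% and 6.62% with the agomir NC. JUND made up 15.95%, 15.5% and 15.8% against 14.9%, 14.1% and 14.03%. The shares of both were higher in every agomir library than in any agomir NC library, although agomir 1 and agomir NC 1 were close for JUN. Shares within a family cannot move independently of each other. The lower share of JUNB came with higher JUN and JUND, while the FPKM of JUNB itself overlapped between the groups.

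**Figure D3:**
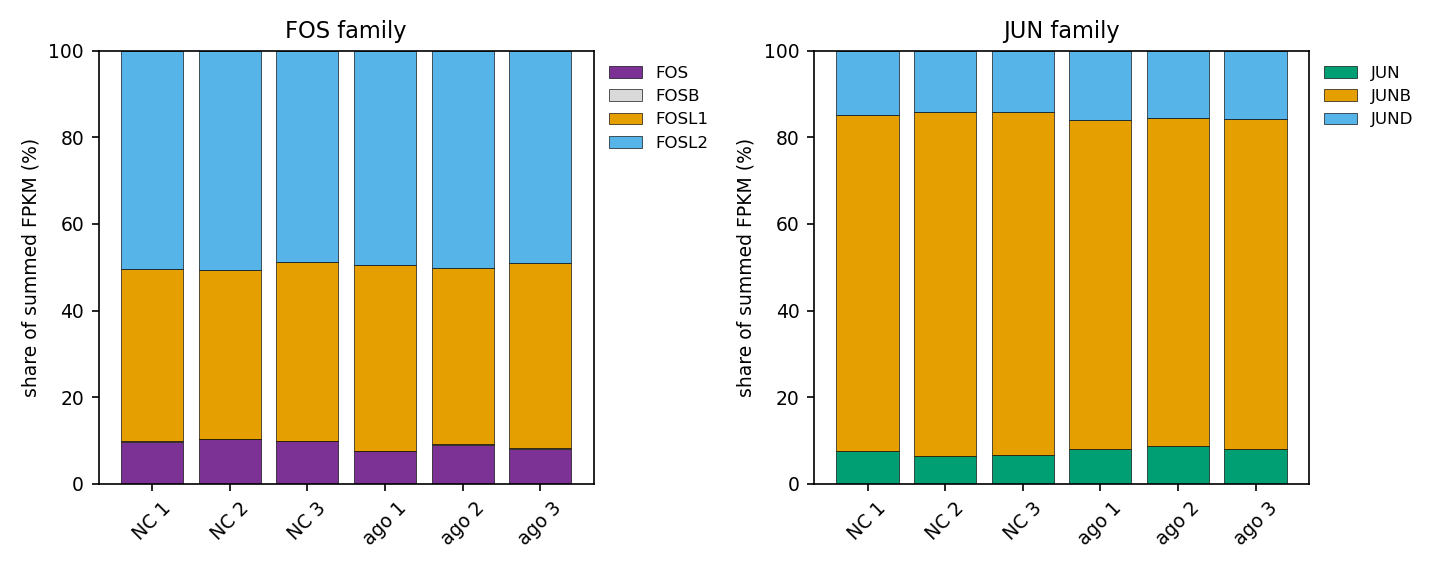
Share of each gene in the summed FPKM of its family, as stacked bars from 0 to 100% for the 3 agomir NC (NC) and the 3 agomir (ago) libraries, with the FOS family on the left and the JUN family on the right. FOS takes 7.61% to 9.07% with the agomir and 9.65% to 10.3% with the agomir NC, and JUNB takes 75.9% to 76.1% and 77.4% to 79.5%. The FPKM of JUNB itself overlapped between the groups.

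Ratios within a library were formed after the values had been seen and are given without a test. JUN over FOS was 2.99, 2.69 and 2.74 in the agomir libraries and 2.16, 1.76 and 2.04 in the agomir NC libraries. JUND over FOS was 6.01, 4.81 and 5.40 against 4.19, 3.88 and 4.33. These ratios were higher in all agomir libraries, which follows from the opposite signs of the single differences. FOSL1 over FOS was 5.64, 4.49 and 5.26 in the agomir libraries and 4.13, 3.78 and 4.22 in the agomir NC libraries. The groups were apart, which again follows from the opposite signs of the single differences. JUNB over JUN was 9.59, 8.79 and 9.49 against 10.1, 12.4 and 11.996, lower in all agomir libraries. JUND over JUN was 2.01, 1.79 and 1.97 against 1.94, 2.202 and 2.12, and FOSL1 over FOSL2 was 0.869, 0.815 and 0.873 against 0.792, 0.769 and 0.846. In both of these ratios the groups overlapped. The summed JUN family over the summed FOS family was 2.82 ± 0.0477 with the agomir and 2.86 ± 0.154 with the agomir NC (SD, n = 3 each), a difference within the spread between replicates.

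EGR1, a zinc finger factor induced through SRF and ELK1 by serum and growth factors, was at 111, 128 and 114 FPKM in agomir libraries 1, 2 and 3 against 109, 125 and 123 FPKM in agomir NC libraries 1, 2 and 3. The groups overlapped almost fully, and in each of them replicate 1 was the lowest and replicate 2 the highest. Its means of 117.9 ± 8.94 and 119 ± 8.32 FPKM (SD, n = 3 each) gave a log2 fold change of -0.012 (95% interval -0.16 to 0.14), or a fold between 0.895 and 1.10. The sign was positive without agomir 1 (0.028), agomir 3 (0.0075), agomir NC 2 (0.022) or agomir NC 3 (0.012) and with quantile normalization (0.0073).

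ATF3, a stress-induced factor that pairs with JUN proteins and mostly represses as a homodimer, was at 9.47, 8.65 and 7.35 FPKM under the agomir versus 9.03, 7.89 and 10.6 FPKM under the agomir NC. The groups overlapped, with the lowest value in agomir 3 and the highest in agomir NC 3. Its log2 fold change was -0.103 (95% interval -0.36 to 0.16), the widest interval of the 9 genes, and without agomir NC 3 it was 0.00056. The SD between replicates of ATF3 was 0.19 on the log2 scale, at the 84.6th percentile of all genes tested. Among genes that averaged 5 FPKM or more it was at the 95.4th percentile.

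MYC, a regulator of growth and ribosome production that acts with MAX, was at 11.6, 11.9 and 11.8 FPKM after agomir transfection, compared with 10.1, 10.5 and 10.8 FPKM after agomir NC. The agomir libraries lay close together and above all agomir NC libraries. Group means were 11.8 ± 0.161 and 10.5 ± 0.357 FPKM (SD, n = 3 each), with a log2 fold change of 0.16 (standard error 0.059, 95% interval 0.030 to 0.296). The adjusted p = 0.381 in limma with Benjamini-Hochberg adjustment did not pass. Even the unadjusted line was missed without agomir 2 (0.15), agomir 3 (0.16) or agomir NC 1 (0.14).

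For JUN, JUND, MYC, FOSL1 and FOS a two-sided exact permutation test returned p = 0.1, which is the smallest value that 3 libraries against 3 allow, so it cannot pass 0.05. For the others it gave p = 0.7 (JUNB and FOSL2), p = 0.5 (ATF3) and p = 1 (EGR1), again as exact two-sided values with n = 3 each.

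Since handling can move some of these genes within minutes, single libraries were also compared within their group. The SD between replicates on the log2 scale had a median of 0.070 over the 9 genes, from 0.036 for MYC to 0.19 for ATF3. MYC, FOSL2, FOSL1 and JUND were among the steadier genes, at the 5.39th, 6.87th, 7.63rd and 8.52nd percentiles of this SD over all genes tested. JUNB lay at the 28.9th, JUN at the 29.0th, FOS at the 43.7th and EGR1 at the 54.0th. Over all genes tested the median was 0.099, and over the 8010 genes that averaged 5 FPKM or more it was 0.080. All 9 genes averaged more than 5 FPKM, and among those 8010 genes their percentiles were higher. They were 7.85 for MYC, 9.94 for FOSL2, 11.0 for FOSL1 and 12.3 for JUND. JUNB was at 40.1, JUN at 40.3, FOS at 58.9, EGR1 at 70.4 and ATF3 at 95.4. Agomir 3 was the highest agomir library for 0 of the 9 genes and the lowest for 4, FOSL2, JUN, JUNB and ATF3. Agomir 1 was the highest for 5 and the lowest for 3. In the agomir NC, replicate 1 was the lowest for 6 of the 9 genes and replicate 3 the highest for 5. The median log2 deviation of the 9 genes from the group mean was 0.017, 0.016 and -0.026 in agomir libraries 1, 2 and 3 and -0.024, 0.010 and 0.028 in agomir NC libraries 1, 2 and 3. Agomir 3 was above its group mean for FOSL1 and MYC. Each of the other 5 libraries was the highest of its group for some members and the lowest for others. These ranks are a description, and whether handling differed between libraries was not tested.

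Heat shock and handling stress genes, a list of 18 that includes chaperones of the HSP70 and HSP90 families, summed to 1506, 1571 and 1487 FPKM in agomir libraries 1, 2 and 3 against 1522, 1438 and 1514 FPKM in agomir NC libraries 1, 2 and 3, with overlap. Of 17 tested, 2 were higher and 1 lower at an unadjusted p of 0.05 in limma, 17.6% in all beside 10.9% of all genes tested, and none passed after adjustment, with a median log2 fold change of 0.0092, and the count of 3 became 1 without agomir 1 or agomir 2. The small heat shock protein gene HSPB8 was at a log2 fold change of 0.16, the constitutive chaperone gene HSPA8, the most abundant, at 0.12, and the mitochondrial cochaperone gene HSPE1 at -0.16. HSPA8 was lost with median-ratio scaling and without agomir 1, agomir 2, agomir NC 2 or agomir NC 3, and HSPE1 without agomir 1, agomir 2 or agomir NC 3. Whether handling moved the members was not tested.

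The surroundings of the 10 genes were described by 7 further lists, which with the stress list hold 151 tested genes. Of these, 22, or 14.6%, had an unadjusted limma p below 0.05, beside 10.9% of all genes tested. Of the 22, 10 were higher and 12 lower (8 and 15 with median-ratio scaling), and none was under an adjusted p of 0.05. Without agomir 2 the count was 14, and 10 of the 22 genes were under the line with every library left out in turn.

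Other AP-1 and bZIP proteins, many of which can join FOS or JUN proteins in dimers, had 0 of 18 genes higher and 3 lower. That is 16.7% in all beside 10.9% of all genes tested, with a median log2 fold change of 0.0019. ATF4, the main factor of the integrated stress response, was the most abundant at 224 FPKM. The small MAF gene MAFK (-0.27), JDP2, which encodes a repressor of AP-1 (-0.18), and ATF5 (-0.17) were lower with overlapping groups, and ATF5 was lost under quantile normalization. MAFK was under the unadjusted line in 1 of the 6 fits with a library left out (without agomir 2), JDP2 in 3 (not without agomir 2, agomir NC 2 or agomir NC 3) and ATF5 in 2 (without agomir 1 or agomir NC 1). The count of 3 became 0 without agomir NC 2 or agomir NC 3 and 1 without agomir 2 or agomir 3. Other immediate early genes had 1 of 29 higher and 2 lower, or 10.3% beside 10.9% of all genes tested, with a median of 0.026. MCL1, a survival gene of the BCL2 family, was the most abundant at 118 FPKM. NR4A3, an orphan nuclear receptor gene, was at 2.68, 2.35 and 2.23 FPKM under the agomir versus 1.896, 1.64 and 2.103 FPKM under the agomir NC, with a log2 fold change of 0.296 and groups apart, but it missed the unadjusted line without agomir 1, agomir 2, agomir NC 1 or agomir NC 2. IER3 (-0.21) and the small GTPase gene GEM (-0.15) were lower with overlapping groups, but IER3 missed the line without agomir 3, agomir NC 2 or agomir NC 3, and GEM without any single library except agomir NC 1. The count of 3 was 0 without agomir NC 2 and 1 without agomir 2.

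MAPK phosphatases and Sprouty proteins shut off the kinases that induce immediate early genes. Here 3 of 15 tested genes were higher and 2 lower, 33.3% in all beside 10.9% of all genes tested, with a median log2 fold change of 0.039. DUSP6, a phosphatase gene that is itself induced by growth factor signalling, was at 16.3, 16.5 and 14.4 FPKM after agomir transfection, compared with 18.9, 19.3 and 19.8 FPKM after agomir NC. Its log2 fold change was -0.29 (95% interval -0.44 to -0.15, adjusted p = 0.225 in limma with Benjamini-Hochberg adjustment), the lowest adjusted p of the further lists. DUSP1, the most abundant gene of the list and an immediate early gene in its own right, was at 48.3, 48.8 and 47.05 FPKM against 54.2, 51.5 and 53.8 FPKM, a log2 fold change of -0.14. DUSP16, a phosphatase gene for JNK and p38, was at 1.76, 1.94 and 1.83 FPKM against 1.44, 1.27 and 1.22 FPKM, a log2 fold change of 0.38. In these 3 genes the groups were apart and the unadjusted line was passed with every library left out. SPRY2 (0.22) and DUSP7 (0.198) were also higher, but SPRY2 missed the line under both scalings and without any single library except agomir NC 3, DUSP7 missed it without agomir 1, agomir 2, agomir NC 2 or agomir NC 3, and the count of 5 became 3 without agomir 1, agomir 2 or agomir NC 2.

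Upstream kinases and SRF cofactors had 2 of 28 higher and 0 lower, or 7.14% beside 10.9% of all genes tested, with a median of 0.021, and the count was 1 without agomir NC 2 and 3 without agomir NC 1 or agomir NC 3. The higher ones were the RAS gene NRAS (log2 fold change 0.21) and the RAF kinase gene ARAF (0.199), and ARAF was lost without agomir 1 or agomir NC 2. MYC and EGR1 partners, of which MYCBP was the most abundant at 30.5 FPKM, had 1 of 13 higher, or 7.69% beside the same 10.9%. The higher gene was the EGR1 corepressor gene NAB1 (0.19). This list had a median of 0.064, and the count was 2 without agomir 3, agomir NC 1 or agomir NC 3.

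Known AP-1 target genes had 1 of 15 higher and 4 lower, 33.3% in all beside the same 10.9%, with a median log2 fold change of -0.061, and VIM, the vimentin gene, was the most abundant at 5404 FPKM. CCND1, which encodes cyclin D1, was at 32.9, 38.6 and 34.8 FPKM in agomir libraries 1, 2 and 3 against 29.0, 30.1 and 25.7 FPKM in agomir NC libraries 1, 2 and 3, a log2 fold change of 0.32 (adjusted p = 0.252 in limma). IL6, a cytokine gene, was at 76.04, 73.5 and 63.8 FPKM against 83.6, 84.04 and 91.9 FPKM, a log2 fold change of -0.28 (adjusted p = 0.257 in limma). The groups of both genes were apart, in opposite directions. TGFB1 (-0.22), PTGS2 (-0.18) and VEGFA (-0.15), the last named after its values were seen, were lower with groups apart, and TGFB1 was above the unadjusted line without agomir 3 or agomir NC 3. Of 16 MYC target genes, 0 were higher and 0 lower (1 under the line without agomir NC 2), with log2 fold changes between -0.101 and 0.099 and a median of -0.0045, and LDHA was the most abundant at 414 FPKM.

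With 3 libraries per group and 1 time point, the intervals of FOSL2, JUNB and EGR1 reach at least as far from 0 as the log2 fold change of FOSL1, and the early hours after transfection were not measured. Strand was not given in the sources used here, so reads of a member and of an overlapping neighbour cannot be told apart, and in the RefSeq table a gene named only by a LOC number lies within 1 kb of JUN and another within 1 kb of EGR1.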

How the data were processed

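RNA of 6 libraries was described by FPKM values that the authors deposited per gene and library. The submitters' processing notes name fastp, HISAT2, StringTie and the build ARS-UCD1.2, with no versions or roles. Depth is unknown, and low values held no steps of whole reads. Genes averaging 0.5 FPKM or more were taken as log2(FPKM + 0.5), a scale that understates changes of low genes, and compared with limma 3.58.1 (R 4.3.3), using a two-sided linear model with a variance trend, with Benjamini-Hochberg adjustment over 12422 genes. The model was tested on simulated data. An exact permutation test over 20 labelings was added for single genes. Named were all 10 genes, from each further list the most abundant gene and up to 4 genes with the largest log2 fold changes under an unadjusted p of 0.05, and from marker lists the most abundant gene and those at 0. A result that this rule would name is not reported here. The members and lists were chosen with earlier results of these data known. Alternatives were each library left out, a replicate block, array weights, a model without the trend, quantile normalization, median-ratio scaling, a filter at 1 FPKM or none, and a pseudocount of 0.1 or 1. Neighbouring genes and synonyms came from a RefSeq table of ARS-UCD2.0, in which all 10 genes matched.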

Additional observations from a re-analysis of the deposited data

How the results depend on the processing

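Under none of 15 alternatives was any of the 9 genes under an adjusted p of 0.05 in limma with Benjamini-Hochberg adjustment, the lowest being 0.237 for JUN. Of 135 single log2 fold changes, 113 kept their sign and their side of an unadjusted p of 0.05, 14 (3 of FOS, 8 of FOSL1 and 3 of MYC) missed that line, and 8 changed sign. JUN (0.23 to 0.305) and JUND (0.12 to 0.17) were under it in all 15. The count of genes under it was 5, and with 1 library left out 2 to 4. The replicate block, median-ratio scaling and the fit without a variance trend each gave 4, without FOSL1. Deviations of same-numbered libraries correlated across genes at -0.051, 0.053 and 0.039. A shared effect on only some genes could leave such values near 0, so whether the numbers pair the libraries is unknown. With 1 library left out, the log2 fold change of EGR1 ranged from -0.073 to 0.028, of ATF3 from -0.20 to 0.00056, of FOSL2 from -0.0022 to 0.0497 and of JUNB from -0.081 to 0.0054, and quantile normalization gave 0.0073 for EGR1. For the further lists and the stress list together, the count of 22 ranged from 14 to 25. That range covers only each library left out, quantile normalization and median-ratio scaling. The median of the 9 genes lay between 0.0084 and 0.0497 over the alternatives with a filter, and without a filter that of all 10 genes was 0.0062. Fits with 1 library less have fewer samples, and otherwise the cause was not tested. Read numbers are unknown, so no counting error can be set beside low values such as those of FOSB.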
